A study of Mus musculus with 9 samples.

Results

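The regions described here were called as accessible in reprogramming cells after knockdown of the histone variant H3.3 and were not called in either day 6 control. A merged ATAC-Seq region of the D6 siH3.3 library on chromosomes 1 to 19 was included if it overlapped, by as little as 1 bp, no peak of the D6 siNT library and no peak of the D6T- library. They are called siH3.3-only regions below. The set comprised 1107 of the 46211 regions of the D6 siH3.3 library, a share of 2.40%, out of 606963 regions over all 9 libraries. The regions were chosen by the peak calls of the 3 day 6 libraries, so their calls in D6 siH3.3 and the lack of calls in both controls describe the choice and are no result.

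The study followed mouse embryonic fibroblasts (MEFs) carrying an Oct4-GFP reporter that were infected with retroviruses for Oct4, Sox2, Klf4 and c-Myc (OSKM), and profiled accessible chromatin by ATAC-Seq. D0 and D3 were unsorted cells of day 0 and day 3, D6T- and D9T- were Thy-1- cells of day 6 and day 9, D12S+ and D16S+ were SSEA-1+ cells of day 12 and day 16, and iPSCs were the fully reprogrammed cells. D6 siH3.3 cells were transfected at the start with siRNA pools against H3f3a and H3f3b, which encode H3.3, and D6 siNT cells with non-targeting siRNA. Both also received OSKM and were collected on day 6. GEO labels both as Thy-1-, whereas the library list of the study gives no sorting for either. There was 1 library per condition, so no difference below could be tested against replicates, and none of the values carries a p-value. ATAC-Seq does not measure transcripts and gives no check of the knockdown. The 3 day 6 libraries held 18669683 (D6 siH3.3), 21784047 (D6 siNT) and 21390800 (D6T-) tags. The promoters of 2 of 5 fibroblast markers, Col1a1 and Twist1, and of 1 of 5 epithelial markers, Krt8, were called in both siRNA libraries. Of 5 pluripotency markers, Pou5f1 was called in every library, D0 included, at 13.1 CPM in D0, 9.64 in D6 siNT and 9.37 in D6 siH3.3. Pou5f1 is Oct4, which the retroviruses also carried, and the part of vector reads in these calls was not tested. A call at Esrrb was made in D6 siNT (0.459 CPM) and not in D6 siH3.3, and at Nanog, Zfp42 and Dppa5a in neither. Esrrb was the only one of the 15 markers whose call differed between the siRNA libraries.

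H3.3 replaces canonical H3 outside DNA replication, and its chaperone Hira places it at active genes and regulatory elements while Daxx and Atrx place it at heterochromatin. ATAC-Seq reads come from DNA that the transposase Tn5 can reach, chiefly promoters and enhancers from which nucleosomes are displaced. In fibroblasts, many enhancers carry sites of AP-1, the Fos and Jun family, and they lose accessibility on the way to pluripotency, whereas enhancers bound by Oct4 and Sox2 gain it.

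The sequences of 6 siH3.3-only regions are printed to show what lies under strong calls of each position class and of each time-course class. Each is the forward strand of mm9 from 100 bp before to 100 bp after the summit, with matches to any of the 10 motifs searched in capitals. The Pid1 intron (chr1:84083189-84083389) had the highest summit of those printed and held no motif. The Etl4 intron (chr2:20404842-20405042) held an AP-1 match, TGAGTCA, that shares bases with a TEAD match. The intergenic region upstream of C330021F23Rik (chr8:3556194-3556394) lies in TG repeats, and its RUNX matches fall within them. The Nck2 promoter (chr1:43501060-43501260) had an AP-1 match, TGACTCA, beside its summit. The Plcb1 intron (chr2:134786450-134786650) ranked first by position among regions with equal summits that were called in iPSCs and D16S+ and not in D0 or D3. The region of the Cyp3a cluster (chr5:146412730-146412930) had the highest summit of those called in D0 and D3 and not in D12S+, D16S+ or iPSCs.
Pid1 intron: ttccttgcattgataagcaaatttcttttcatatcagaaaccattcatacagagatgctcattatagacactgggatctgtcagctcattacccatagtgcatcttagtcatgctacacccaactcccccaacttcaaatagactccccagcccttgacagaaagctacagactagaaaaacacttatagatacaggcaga
Etl4 intron: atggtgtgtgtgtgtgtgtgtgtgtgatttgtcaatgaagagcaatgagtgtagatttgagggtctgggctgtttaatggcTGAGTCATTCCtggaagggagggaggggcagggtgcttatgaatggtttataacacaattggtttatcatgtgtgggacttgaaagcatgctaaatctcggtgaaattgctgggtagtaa
C330021F23Rik upstream: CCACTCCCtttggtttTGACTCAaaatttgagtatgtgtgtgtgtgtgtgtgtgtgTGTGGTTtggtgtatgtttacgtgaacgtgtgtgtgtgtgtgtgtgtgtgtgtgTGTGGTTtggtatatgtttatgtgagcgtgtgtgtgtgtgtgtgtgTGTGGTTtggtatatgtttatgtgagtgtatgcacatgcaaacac
Nck2 promoter: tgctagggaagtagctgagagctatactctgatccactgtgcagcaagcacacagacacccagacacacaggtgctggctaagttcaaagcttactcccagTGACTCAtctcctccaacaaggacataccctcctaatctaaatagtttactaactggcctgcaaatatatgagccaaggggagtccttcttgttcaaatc
Plcb1 intron: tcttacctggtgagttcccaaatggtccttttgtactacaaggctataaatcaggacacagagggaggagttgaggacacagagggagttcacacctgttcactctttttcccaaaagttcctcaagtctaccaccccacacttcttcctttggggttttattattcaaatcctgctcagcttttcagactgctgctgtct
Cyp3a cluster: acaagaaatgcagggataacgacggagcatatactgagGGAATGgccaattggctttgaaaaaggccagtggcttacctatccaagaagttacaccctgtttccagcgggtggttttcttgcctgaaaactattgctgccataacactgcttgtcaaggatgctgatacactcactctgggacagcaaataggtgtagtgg

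The siH3.3-only regions were weak and narrow. The summit level is given in CPM, the tags over the summit divided by all tags of the library and multiplied by 1000000. It had a median of 0.536 CPM (lowest 0.429, highest 1.12), against 0.750 over all D6 siH3.3 regions. In tags, the summits held 8 to 21, with a median of 10. The median width was 210 bp against 352 bp, and 41.6% of the siH3.3-only regions had the minimum width of 200 bp, compared with 9.13% of all D6 siH3.3 regions. Their levels therefore sat just above what the caller could detect.

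A missing peak in a control is not a measured 0. The lowest summit called in D6 siNT was 0.413 CPM and in D6T- 0.374, and the level of a region without a call is not given in the files. The median siH3.3-only summit was 1.30 times the lowest summit called in D6 siNT. A ratio of at least 1.5 was reached by 309 regions and a ratio of at least 2 by 13. For the strongest summit, in the Sepsecs intron, the exact 95% Poisson interval of its 21 tags ran from 0.696 to 1.72 CPM, an interval that covers counting error only. These ratios are to the lowest called summit of the D6 siNT library and not to its level at the same region. The difference from D6 siNT was thus not measured for any region.

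**Figure D1:**
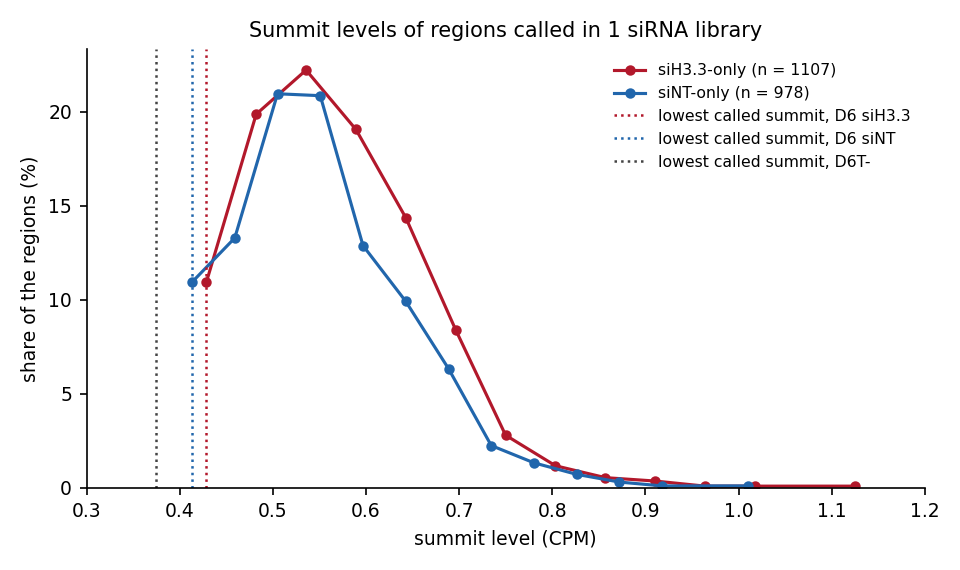
Share of the regions (y axis, %) at each summit level (x axis, CPM) for the 1107 siH3.3-only regions (red) and the 978 siNT-only regions (blue). Each point is 1 whole number of tags, and dotted lines mark the lowest summit called in each day 6 library. Most regions of both sets lie between 0.4 and 0.7 CPM, next to the dotted lines.

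The reverse choice gave a set of nearly the same size. Regions of D6 siNT that overlapped no D6 siH3.3 and no D6T- peak numbered 978 of 45312, a share of 2.16%. These siNT-only regions had a median summit of 0.551 CPM (lowest 0.413, highest 1.01) and a median width of 224 bp. The siH3.3-only regions were 1.13 times as many, and the order turned with thresholds on q or tags. With −log10 q of at least 5 in the library that called the region, 150 siH3.3-only and 206 siNT-only regions remained. With at least 12 tags at the summit 309 and 536 remained. Both thresholds are a lower level in CPM in the deeper D6 siNT library. By level the order did not turn. A ratio of at least 1.5 to the lowest summit called in the other siRNA library was reached by 309 siH3.3-only and 109 siNT-only regions. A ratio of at least 2 was reached by 13 and 5. That lowest summit was 0.413 CPM in D6 siNT and 0.429 in D6 siH3.3.

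The D6T- library decided the size of the set. It held 129532 regions, and 10379 of the 11486 D6 siH3.3 regions without a D6 siNT peak overlapped one of them. When only the 45312 strongest regions of each day 6 library were kept, 5957 siH3.3-only and 5969 siNT-only regions resulted. A further 270 D6 siH3.3 regions were called in D6 siNT and not in D6T-, and 34455 were called in both controls.

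Several regions lay close to a control peak. The distance to the nearest D6 siNT or D6T- peak had a median of 2741 bp, and it was under 500 bp for 254 regions (22.9%) and over 10 kb for 228 (20.6%). Just inside the rule, the region in the promoter of Hdc, the gene of histidine decarboxylase (chr2:126424603-126424802, 9 tags), touched a control peak without sharing a base. The next regions in this order, at chr16:8109166-8109365 (9 tags) and chr16:11377495-11377740 (8 tags), lay 2 and 3 bp from one. Just outside it, regions at chr2:172402508-172402800 (14 tags), chr2:167911619-167911861 (9 tags) and chr17:74160765-74160964 (11 tags) shared 1, 2 and 5 bp with a control peak.

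Most siH3.3-only regions lay in genebodies or between genes. Promoters, taken as 3 kb upstream of a transcription start site (TSS), held 115 regions, or 10.4% (95% Wilson interval 8.73 to 12.3). Genebodies held 504, or 45.5% (42.6 to 48.5), and intergenic sequence 488, or 44.1% (41.2 to 47.0). All such intervals cover the counting of regions only. Over all D6 siH3.3 regions the promoter share was 26.8%, the genebody share 39.6% and the intergenic share 33.5%. The siH3.3-only regions were thus poorer in promoters than the library they came from, by a margin wider than the interval. The choice bears on this margin, since it removed the regions called in both controls, of which 31.3% lay in promoters.

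Promoters were still more frequent than in the genome. Among all windows of the same length laid end to end along chromosomes 1 to 19, 6.11% had their midpoint in a promoter, 38.5% in a genebody and 55.4% between genes. The siNT-only regions had shares of 11.5% (9.61 to 13.6), 48.6% and 40.0%, and their promoter interval overlapped that of the siH3.3-only regions. The D6 siH3.3 regions shared with D6T- alone had a promoter share of 14.3% (13.6 to 15.0). By feature, 495 siH3.3-only regions had their midpoint in an intron, 34 in a UTR, 28 in coding sequence, 17 in another exon and 533 outside genes. The distance to the nearest TSS had a median of 14241 bp against 7555 bp over all D6 siH3.3 regions, and 23.9% of the regions were over 50 kb from a TSS. The siNT-only regions had a median of 12906 bp and 20.1% over 50 kb. The regions shared with D6T- alone had 13392 bp and 23.1%.

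**Figure D2:**
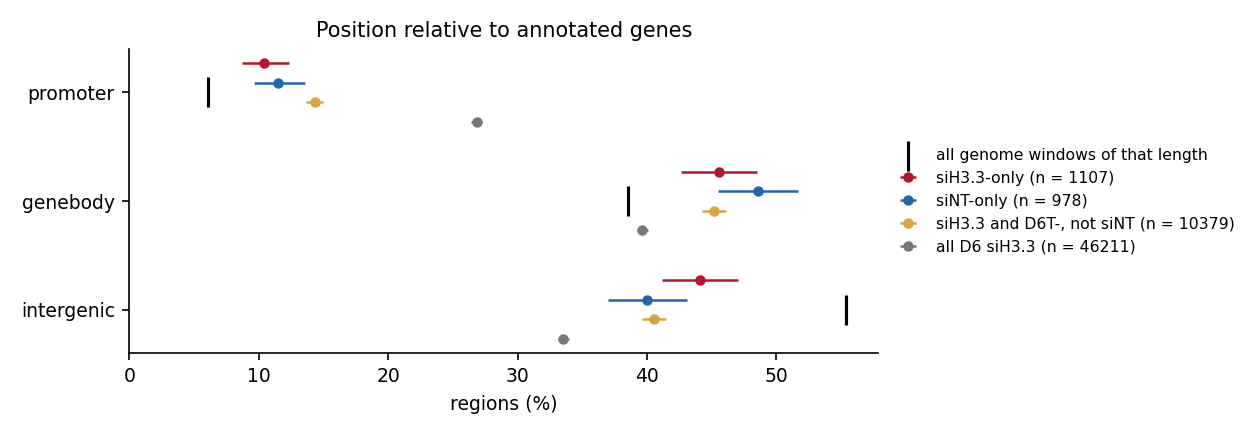
Share of regions (x axis, %) in promoters, genebodies and intergenic sequence (y axis) for the siH3.3-only, siNT-only and D6T- shared regions and all D6 siH3.3 regions. Points carry 95% Wilson intervals, and black ticks give the share of all genome windows of the same length. In promoters the siH3.3-only regions (10.4%) lie between the genome (6.11%) and all D6 siH3.3 regions (26.8%), and overlap the siNT-only regions.

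The strongest summits were in introns and between genes. The Sepsecs region, in an intron of the gene for the enzyme that completes selenocysteinyl-tRNA, had 21 tags, or 1.12 CPM. The region in Pid1 (chr1:84083131-84083460), an adaptor gene linked to insulin signalling, had 19 tags, or 1.02. The intergenic region 11.7 kb upstream of C330021F23Rik (chr8:3556148-3556502) had 18 tags, or 0.964. These 3 were followed by 4 regions with 17 tags, or 0.911 CPM, in Etl4 (chr2:20404812-20405070), in Gna13 (chr11:109230402-109230722), which encodes a G protein subunit, and between genes at chr2:65099111-65099344 and chr4:105161354-105161619. Of the 13 regions with 16 tags or more, 8 were called in none of the other 6 libraries, as were 54.0% of all siH3.3-only regions. The share called in any of the 6 was 56.1% (43.3 to 68.2) with 14 tags or more. It was 40.5% (35.4 to 45.8) with 8 or 9 tags.

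The highest promoter summits were lower, at 14 tags or 0.750 CPM each. They lay 1440 bp upstream of Nck2, an adaptor of receptor tyrosine kinases (chr1:43501037-43501276), 447 bp upstream of a start site of Lama5, the laminin alpha 5 chain (chr2:179913420-179913690), and 1922 bp upstream of Gm11657 within an intron of Prkca (chr11:107853294-107853535). The Lama5 region had its midpoint in coding sequence of Lama5, so it lies inside the gene. The Nck2 region was called in none of the other 6 libraries, the Lama5 region in D0 at 0.536, and the Gm11657 region in D3 at 0.364 CPM. The D3 summit at Gm11657 lay 134 bp away, outside the region.

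About as many siH3.3-only regions were called elsewhere in the series as were not. A peak in at least 1 of the 6 libraries that the choice did not use overlapped 509 of the siH3.3-only regions, or 46.0% (43.1 to 48.9), against 91.6% of all D6 siH3.3 regions. The remaining 598 regions, or 54.0%, were called in D6 siH3.3 alone among the 9 libraries. The share moved with the settings. It was 25.6% with −log10 q of at least 5 and 40.5% with a 50% overlap required in the other libraries, and it passed 50% with other choices of the set, at 50.3% with a 50% overlap, 52.0% with D6T- alone as control, 55.3% with −log10 q of at least 5 in D6 siH3.3, 66.6% with equal numbers of strongest regions and 78.7% with D6 siNT alone. The siNT-only regions had 48.9% (45.7 to 52.0) called in at least 1 of the 6, an interval that overlapped. The regions were also narrower (median 210 bp against 352 bp), and the part of width in these shares was not tested.

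Among the early libraries, D0 had a peak at 173 siH3.3-only regions, or 15.6% (13.6 to 17.9), against 60.9% of all D6 siH3.3 regions and 20.6% (18.1 to 23.2) of the siNT-only regions. D3 had a peak at 236, or 21.3% (19.01 to 23.8), against 82.9% and 27.4% (24.7 to 30.3). In both early libraries the siH3.3-only share lay below the siNT-only share, and the intervals did not overlap for either. With windows holding a repeated 51-mer left out, the intervals overlapped in both: the D0 shares were 11.3% and 11.3%, and the D3 shares 16.8% (14.6 to 19.4) and 20.1% (17.4 to 23.04). D9T- had a peak at 47, or 4.25% (3.21 to 5.60), against 61.7% and 6.03% (4.71 to 7.70). D9T- also had the fewest regions of the 9 libraries, 35811.

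Among the late libraries, D12S+ had a peak at 154 siH3.3-only regions, or 13.9% (12.0 to 16.1), against 65.6% of all D6 siH3.3 regions and 14.01% of the siNT-only regions. D16S+ had a peak at 168, or 15.2% (13.2 to 17.4), against 46.4% and 18.5%. iPSCs had a peak at 203, or 18.3% (16.2 to 20.7), against 45.0% and 20.2% (17.8 to 22.9). For all 3 the siH3.3-only and siNT-only intervals overlapped.

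**Figure D3:**
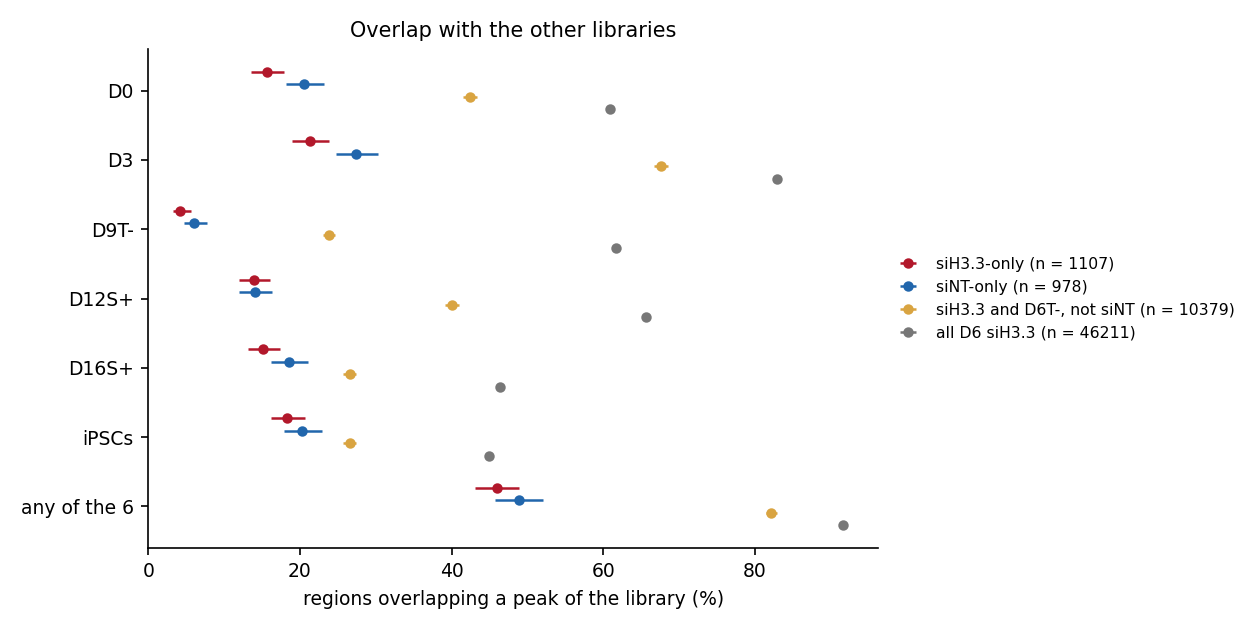
Share of regions (x axis, %) that overlap a peak of each of 6 other libraries, or of any of them (y axis), by 1 bp or more. Points carry 95% Wilson intervals. The siH3.3-only (red) and siNT-only (blue) regions lie close together, between 4% and 28% in each single library, and the regions shared with D6T- (yellow) and all D6 siH3.3 regions (grey) lie to their right in every row.

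Early and late calls were about equally frequent among the siH3.3-only regions. A peak in D0 or D3, with none in D12S+, D16S+ or iPSCs, overlapped 184 regions (16.6%). A peak in D12S+, D16S+ or iPSCs, with none in D0 or D3, overlapped 174 (15.7%, interval 13.7 to 17.98). Over all D6 siH3.3 regions the early class was 19.8% and the late class 4.17%, while 64.6% had both, compared with 11.8% of the siH3.3-only regions. The siNT-only regions had 17.2% early and 12.8% (10.8 to 15.0) late. The late share of the siH3.3-only regions thus lay above that of the whole library, and its interval overlapped that of the siNT-only regions. The choice bears on this share, since it removed the regions called in both controls. Of those, 74.0% had both early and late calls and 2.79% were late only. The late share was 7.34% in the regions shared with D6T- alone.

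In single patterns, 80 regions were called in D3 alone of the 6, 58 in D0 alone, 45 in D0 and D3, 44 in iPSCs alone and 33 in D12S+, D16S+ and iPSCs together. In all 6 libraries only 1 region was called, against 27.9% of all D6 siH3.3 regions.

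There were 56 regions with peaks in iPSCs and D16S+ and none in D0 or D3. Their level was higher than in D6 siH3.3 for 51 of 56 in D16S+ and 41 of 56 in iPSCs, and for 34 of the 38 called in D12S+. The choice bears on these counts, since it kept regions with peaks in D16S+ and iPSCs and without one in either day 6 control. The 5 with the highest D6 siH3.3 summits were a Plcb1 intron, a Cdk7 intron, a Bmpr1b intron and regions near Dgkb and Gpc6. In Plcb1 (chr2:134786315-134786665), which encodes a phospholipase C, the summit was 0.750 CPM in D6 siH3.3, 1.93 in D12S+, 2.60 in D16S+ and 1.32 in iPSCs. In Bmpr1b (chr3:141512080-141512492), a receptor of bone morphogenetic proteins, it was 0.696 in D6 siH3.3, 0.908 in D9T-, 1.82 in D12S+, 1.84 in D16S+ and 1.84 in iPSCs. In Cdk7 (chr13:101491636-101491856), a kinase of the transcription factor TFIIH, it was 0.750 in D6 siH3.3, 0.681 in D12S+, 1.09 in D16S+ and 1.09 in iPSCs. All 3 lacked a call in D0 and D3, and the first and the last also in D9T-.

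The other late regions were intergenic. At 106 kb from a Dgkb start site (chr12:38500661-38500937) the levels were 0.750 in D6 siH3.3, 0.908 in D9T-, 1.19 in D12S+, 1.18 in D16S+ and 0.865 in iPSCs. At 27.1 kb from Gpc6, which encodes a glypican (chr14:117297287-117297491), they were 0.750, 0.530, 0.908, 0.567 and 1.05 in the same order. The Gpc6 region was the only one of the 5 whose D16S+ level lay below its D6 siH3.3 level.

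There were 45 regions with peaks in D0 and D3 and none in D12S+, D16S+ or iPSCs. Their median level was 0.504 CPM in D0 (0.378 to 1.04, lowest summit called 0.347) and 0.496 in D3 (0.331 to 0.893, lowest summit called 0.331). The highest in D6 siH3.3 lay in the Cyp3a cluster of cytochrome P450 genes (chr5:146412553-146412999), with 0.803 CPM, 0.631 in D0 and 0.496 in D3. The next was intergenic near Ggt6 (chr11:72237266-72237518), with 0.750, 0.441 and 0.496. The others among the 5 lay in Gm13227 (chr4:145025198-145025397), in the promoter of Gm14453 (chr2:172861975-172862174) and near Gm11927 (chr4:32131186-32131431). Their D0 and D3 levels ran from 0.331 to 0.757. Repeated sequence made up 33.8% of the 51-mers in the window of the Cyp3a region and 22.5% in that of the Gm13227 region. The windows of the other regions of the 5 held no repeated 51-mer. The D0 summit at Gm14453 lay 290 bp away, outside the region.

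The Sepsecs region stood apart in D3. It was called there at 198 tags, or 6.55 CPM, with 6 bp between the summits of the libraries, and in no other time-course library. This was the highest D3 level of any siH3.3-only region, where the median of the 236 called was 0.496. The levels of such overlaps are those of the strongest summit of the overlapping region, which lay inside the siH3.3-only region for 142 of 236 in D3 and 141 of 203 in iPSCs. The high D16S+ level of 7.18 CPM beside 4930427A07Rik and the D12S+ level of 4.49 in Mum1, picked like the Sepsecs level after the values were seen, belong to summits 1499 and 629 bp away.

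**Figure D4:**
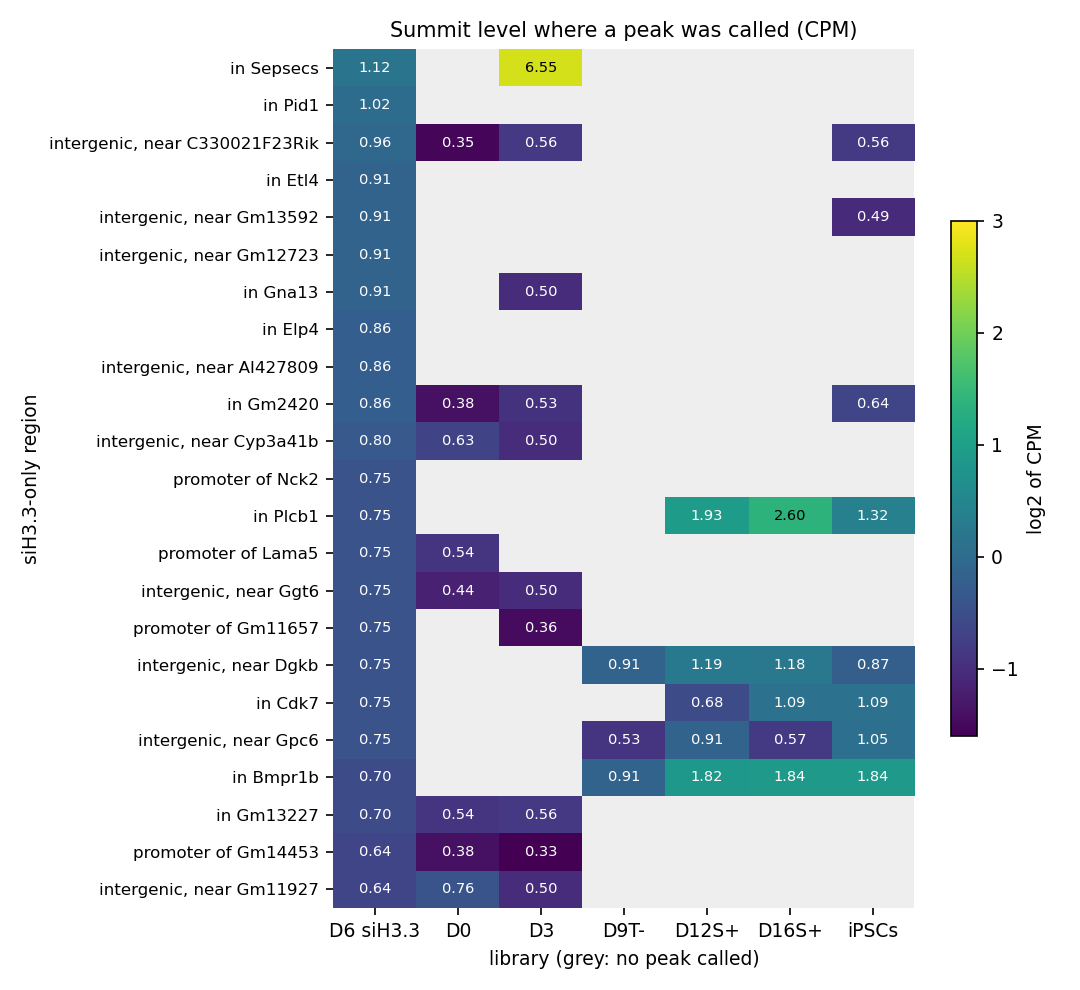
Summit level in CPM (number and colour, log2 scale) of the 23 siH3.3-only regions named for their rank (rows, by D6 siH3.3 level) in D6 siH3.3 and the 6 other libraries (columns). Grey cells had no peak. The late regions in Plcb1 and Bmpr1b reach 1.84 or more in D16S+, and the Sepsecs region reaches 6.55 in D3.

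At the sequence level the siH3.3-only regions held fewer AP-1 sites than the library and more than the genome. The AP-1 motif TGANTCA occurred within 100 bp of the summit in 143 regions, or 12.9% (11.1 to 15.0), on either strand. The share was 29.4% over all D6 siH3.3 regions, 30.9% (30.0 to 31.8) in the D6 siH3.3 regions shared with D6T- alone, 11.2% (9.42 to 13.4) in the siNT-only regions and 5.99% of all genome windows. The low AP-1 share rested on D6T- as a control. It was 29.2% with D6 siNT as the only control, next to the 29.4% of the library, and 24.2% with equal numbers of strongest regions per day 6 library.

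The AP-1 shares were also split by summit height, beside the regions shared with D6T- alone. These sets differ by the D6T- call that the choice used. The siNT-only regions were not split in this way, and the part of summit height was not tested. Among regions with 8 or 9 tags, 12.0% (8.99 to 15.9) of the siH3.3-only regions and 24.9% (23.0 to 26.98) of those shared with D6T- alone held the motif. With 10 or 11 tags the shares were 11.2% and 29.0%, with 12 or 13 tags 16.3% and 32.6%, and with 14 or more 17.5% (9.82 to 29.4) and 37.4% (35.3 to 39.5). The intervals did not overlap in any of the 4 classes. By position, 7 of 115 promoter regions (6.09%), 66 of 504 genebody regions (13.1%) and 70 of 488 intergenic regions (14.3%) of the siH3.3-only set held it.

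The octamer ATGCAAAT, bound by Oct4, occurred in 34 siH3.3-only regions, or 3.07% (2.21 to 4.26), against 2.01% (1.89 to 2.15) of all D6 siH3.3 regions, 2.45% (1.65 to 3.63) of the siNT-only regions and 1.71% of genome windows. The KLF motif GGGNGTGG occurred in 12.1% (10.3 to 14.2) against 12.9% of all D6 siH3.3 regions and 4.70% of genome windows. The SOX motif AACAATG occurred in 4.79% (3.68 to 6.21), TEAD GGAATG in 12.7%, RUNX TGTGGTT in 5.78%, ESRR CAAGGTCA in 1.08%, the NF1 site TTGGCA in 12.7% and the E-box CACGTG in 3.43%. The CTCF core AGGGGGC occurred in 2.89% (2.05 to 4.05) against 5.87% of all D6 siH3.3 regions and 3.07% (2.16 to 4.35) of the siNT-only regions. For AP-1, the octamer and the CTCF core the siH3.3-only interval did not overlap that of all D6 siH3.3 regions, and for the other 7 motifs it did. For AP-1, the octamer and the CTCF core it did overlap that of the siNT-only regions, so these shares were not particular to the siH3.3-only set.

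**Figure D5:**
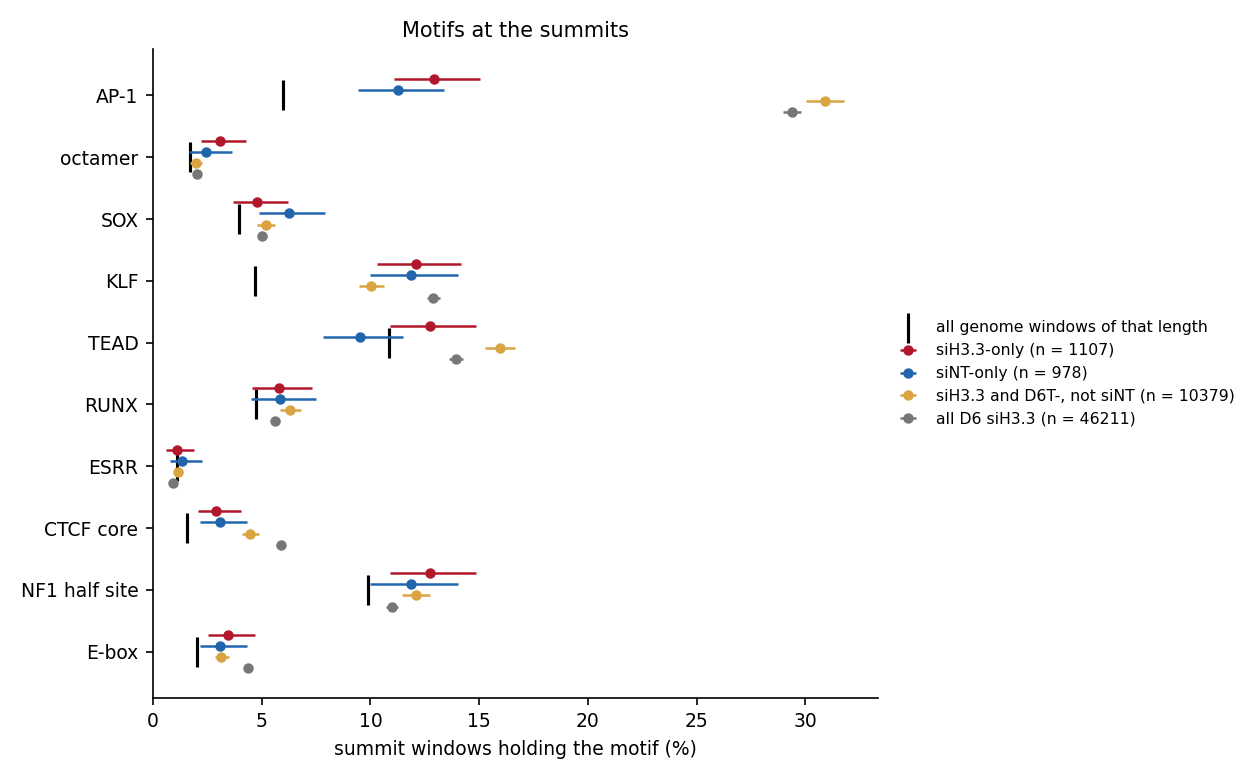
Share of summit windows (x axis, %) that hold each of 10 motifs (y axis) on either strand, for 4 sets of regions with 95% Wilson intervals and for all genome windows (black ticks). In the AP-1 row the siH3.3-only (12.9%) and siNT-only (11.2%) regions lie between the genome (5.99%) and the other sets (29.4% and 30.9%).

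Base composition followed the same order. The median GC content of the window was 47.8% in the siH3.3-only regions, 47.8% in the siNT-only regions and 50.7% over all D6 siH3.3 regions, beside a mean of 41.9% in genome windows. No CpG occurred in 20.2% (17.97 to 22.7) of the siH3.3-only windows, against 21.3% of the siNT-only windows, 11.3% of all D6 siH3.3 regions and 29.9% of genome windows. In promoters, the median window of the siH3.3-only regions held 2 CpGs and that of all D6 siH3.3 regions 14. The median was 3 in siNT-only promoters and 5 in promoter regions shared with D6T- alone.

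A part of the set lay in repeated sequence. At least one 51-mer, the read length, that occurs more than once in the genome was present in the windows of 187 siH3.3-only regions, or 16.9% (14.8 to 19.2), of 22.0% (19.5 to 24.7) of the siNT-only regions and of 5.64% of all D6 siH3.3 regions. In 22 regions every 51-mer was repeated. With windows holding one left out, 41.0% (37.8 to 44.2) of the remaining 920 siH3.3-only regions and 40.9% of the remaining 763 siNT-only regions were called in at least 1 of the 6 other libraries.

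Most regions were scattered, and some gathered in dense stretches. Chromosome 4 held 6.42% of all D6 siH3.3 regions and 11.7% of the siNT-only regions. Of the siH3.3-only regions it held 115, or 10.4% (8.73 to 12.3). Between 145 and 147 Mb of chromosome 4 lay 29 of them, in a block of 78 annotated genes, 19 of them protein-coding and many unnamed, with the zinc-finger genes Rex2 and Zfp600 among them. The block also held 49 siNT-only regions, and 24 of its 29 siH3.3-only and 44 of its 49 siNT-only windows had a repeated 51-mer. Outside it, chromosome 4 had 7.77% of the siH3.3-only and 6.14% of all D6 siH3.3 regions. At 6 Mb of chromosome 17, where the Tmem181 and Dynlt1 paralogs lie, 11 siH3.3-only and 18 siNT-only regions were found, 9 of the 11 with a repeated 51-mer.

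The dense stretches differed in how many siNT-only regions they held. Without any repeated 51-mer, 5 siH3.3-only regions lay at 88 Mb of chromosome 12 beside 7 siNT-only regions, 5 at 90 Mb of chromosome 1 beside 9, and 5 at 114 Mb of chromosome 12 beside 4. Other stretches without a repeated 51-mer held fewer siNT-only regions, and they were picked after their counts were seen. At 153 Mb of chromosome 4, around Prdm16, which drives brown fat fate, and Trp73, a relative of p53, there were 8 siH3.3-only regions and 1 siNT-only region. Their summits held 9 to 15 tags, and 6 of the 8 were called in another library. At 36 Mb of chromosome 5, around Sorcs2, there were 5 and 1. The Sorcs2 gene, of 381 kb, held 4 siH3.3-only regions among its 9 D6 siH3.3 regions, and Prdm16, of 321 kb, held 3 among 9, while neither held a siNT-only region. In all, 13 windows of 1 Mb held 5 or more siH3.3-only regions, 96 regions (8.67%) together, and 112 siNT-only regions (11.5%). The other regions were spread thinly, with 545 windows of 1 Mb holding 1 each.

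The genes of the lists drawn up for this tissue and treatment are set beside all protein-coding genes. A promoter or body with one was found for 538 of 21281 protein-coding genes (2.53%), and with a siNT-only region for 483. None of 41 collagen genes had a siH3.3-only region, and 37 had some D6 siH3.3 region. The 15 epithelial genes, the 10 AP-1 genes and the 10 genes of H3.3 and its chaperones had none either. Beside 2.53% of protein-coding genes, lists this short cannot show a lower share.

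In the MAPK cascade, 3 of 66 genes (4.55%) had a siH3.3-only region and 1 had a siNT-only region. Over all 21281 protein-coding genes these were 538 (2.53%) and 483. Counts this small do not set the cascade apart from protein-coding genes. Dusp16, a phosphatase of JNK, had one in an intron (chr6:134699460-134699674, 12 tags, 0.643 CPM). Map2k7, a kinase upstream of JNK, had one over a UTR that is also the promoter of Gm14378 (chr8:4247256-4247699, 11 tags, 0.589). Neither of these was called in any of the other 6 libraries.

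Of 23 pluripotency genes, Sall4, a zinc-finger factor of the pluripotency network, had an intronic siH3.3-only region (chr2:168586714-168586926, 11 tags, 0.589 CPM), called also in D12S+ at 0.795 and in iPSCs at 0.602. Of 10 mesenchymal genes, Twist2, a factor of mesenchymal cells, had an intronic one (chr1:93715857-93716059, 12 tags, 0.643), called also in D3 at 0.430 and in iPSCs at 0.489. The D3 and iPSC levels at Twist2 belong to summits 230 and 151 bp away, outside the region. Sall4 and Twist2 make up 4.35% and 10.0% of their lists, and 1 gene cannot set a list apart from protein-coding genes. Of 1220 olfactory receptor genes, 1 had one, in the promoter of Olfr459 (chr6:41723757-41723956, 12 tags), whose window held repeated 51-mers. That is 0.082% of the receptor genes against 2.53% of protein-coding genes, and 1.48% of the receptor genes had any D6 siH3.3 region against 63.4%.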

How the data were processed

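ATAC-Seq peak tables of 9 libraries, 1 per condition, were used. According to the methods of the study and the file headers, the authors mapped 51 bp reads to mm9 with STAR, kept reads with a single locus, removed duplicates with Picard and called peaks for each library with MACS2 2.1.0.20151222, without a control or a local background, at a q cutoff of 0.05 with tags extended to 200 bp. The pileup deposited for each peak is a signal that counts the extended tags at its summit without scaling for depth. The deposited −log10 p and −log10 q are Poisson values against tags spread evenly over the genome, and a ratio of summit to even level, deposited as fold enrichment, was not used for any value here. These notes bear on every region: with weak summits of about 10 tags, a call depends on depth and threshold.

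Overlapping peaks of a library were merged on chromosomes 1 to 19, and a merged region took its highest summit. Levels in CPM were scaled by the tag totals of the file headers (13213117 to 31714845 over the 9 libraries). Positions came from the midpoint and the GENCODE annotation of NCBIM37, the same assembly as mm9 (37310 genes), with promoters before genebodies before intergenic sequence. Motifs and 51-mers were counted within 100 bp of the summit on both strands, with all genome windows of that length as background. Shares carry 95% Wilson intervals. Python 3.11.15, pandas 2.3.3, pysam 0.24.0 and samtools 1.23.1 were used, and the code passed 10 of 10 checks on simulated data.

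No test was run. The siH3.3-only regions, the gene lists and the motifs were chosen with earlier results of these data known. Named were the 10 highest summits, the 3 highest of each position class, the 5 highest of the late and of the early class, regions next to the overlap limit and regions in listed genes. Alternatives varied the overlap, the controls, the thresholds, the promoter, the windows and the chromosomes. Those on repeated 51-mers and on 12 tags were added after seeing the data. A few regions and a sequence are not reported here.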

Additional observations from a re-analysis of the deposited data

How the results depend on the processing

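No paired analysis was possible because each condition had 1 library. The siH3.3-only count (1107) became 11486 with D6 siNT alone as control, 5957 with equal numbers of strongest regions, 150 with −log10 q of at least 5 and 309 with at least 12 tags, and stayed within 1.5 times under the other alternatives to the rule. In the same order of these 4 settings, the share called in any of the 6 libraries (46.0%) became 78.7%, 66.6%, 55.3% and 48.5%, the D0 share (15.6%) became 39.8%, 24.7%, 19.3% and 16.2%, the iPSC share (18.3%) became 25.8%, 23.3%, 28.7% and 23.9%, and the AP-1 share (12.9%) became 29.2%, 24.2%, 14.7% and 16.5%. The promoter share (10.4%) was 13.9% with D6 siNT alone, 7.33% with −log10 q of at least 5, 4.97% for promoters from 1 kb upstream to 100 bp downstream and 8.22% for protein-coding genes. With D6T- alone as control the shares called in any library, in D0 and in iPSCs were 52.0%, 22.5% and 23.7%. With overlap with a control counted from 50% of the shorter region, any library was 50.3% and iPSCs 20.9%. With the 50% limit applied to the other libraries, the 3 shares were 40.5%, 12.7% and 15.6%, and with −log10 q of at least 5 there, 25.6%, 7.14% and 9.21%. Without repeated 51-mers, any library was 41.0% and D0 11.3%. AP-1 was 7.498% within 50 bp and 19.8% within 200 bp of the summit. The causes of the other shifts were not tested, except that a wider or narrower window, promoter or overlap limit changes its own share by construction. The AP-1 share stayed below the 29.4% of all D6 siH3.3 regions wherever D6T- was a control and the window was kept. Depth limits every call: 8 tags was the lowest summit in D6 siH3.3, and a region missing from a control may lie just below the limit there.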
